A study of Homo sapiens with 15 samples.

Results

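The 10 genes described here encode 4 cytokines of the interleukin-6 family (IL6, LIF, IL11 and CLCF1), 4 receptor chains (IL6R, IL6ST, OSMR and LIFR), the transcription factor STAT3 and its feedback inhibitor SOCS3. They were taken by symbol from a table of 58219 genes, and all 10 passed the filter on low counts that left 17599 genes for testing. RNA was sequenced from BEAS-2B, an immortalized line of human bronchial epithelial cells, so that all libraries came from 1 cell line grown in serum-free medium. PM2.5 was a water extract of fine particles that filters had caught in Beijing. In the 24-h protocol, cells were left with vehicle, with PM2.5 at 1 µg/cm2 or with PM2.5 at 30 µg/cm2, and in the 7-day protocol they were given vehicle or 1 µg/cm2 every day. Each of these 5 groups held 3 libraries from 3 experiments, and both 24-h exposures were compared with the same 3 controls. The labels and the methods differ by 1 in the number of daily exposures, and the cells of the 2 protocols were plated at different densities.

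Cytokines of this family bind a specific receptor chain, such as IL6R, or pair LIFR or OSMR with the shared chain gp130, which IL6ST encodes. Janus kinases on these chains then phosphorylate STAT3, which enters the nucleus and switches on target genes. SOCS3 is one of these targets, and its protein binds gp130 and the kinases and shuts the signal off. In the airway, epithelial cells are a source of IL6 and LIF during inflammation, and IL11 is known for its part in tissue remodelling.

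Each library held 21460981 to 34724765 counts, and 3 counts, the floor for a library, equalled 0.0864 to 0.140 CPM. CPM gives a gene's counts relative to the total of its library, and the floor allows for counting error alone. Levels below are CPM scaled by the trimmed mean of M-values (TMM), given for experiments 1, 2 and 3 in that order. The libraries of 24-h experiment 2 stood apart from those of experiments 1 and 3 in every 24-h group. Between them, the chi-square per degree of freedom over genes was 76.7 to 182, against 4.46 to 18.2 between experiments 1 and 3. KRT8 and KRT18, keratins of epithelial cells, were present in every library, whereas PTPRC, the pan-leukocyte marker CD45, had 0 to 2 counts and the endothelial marker PECAM1 0 to 6. CD14, a monocyte marker, was the exception among 5 leukocyte markers, with 62 to 515 counts per library. In bulk RNA, fewer cells of a type and less RNA per cell cannot be told apart.

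For the cytokine genes IL6 and IL11, the stretch before the start site is shown because each held a match to a motif of a factor that is switched on by stress. Both come from RefSeq (GRCh38.p14), read 5′ to 3′ on the strand of the gene. The IL6 stretch is chr7:22726950-22727146 on the plus strand, bases -250 to -54 from the start site, with a match to the NF-kappaB motif in capitals. The IL11 stretch is chr19:55370464-55370713 on the minus strand, bases -250 to -1, with a match to the AP-1 motif (TGANTCA) in capitals.
IL6: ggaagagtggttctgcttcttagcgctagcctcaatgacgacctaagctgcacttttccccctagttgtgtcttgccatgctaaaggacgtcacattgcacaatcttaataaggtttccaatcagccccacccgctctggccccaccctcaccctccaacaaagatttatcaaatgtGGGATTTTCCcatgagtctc
IL11: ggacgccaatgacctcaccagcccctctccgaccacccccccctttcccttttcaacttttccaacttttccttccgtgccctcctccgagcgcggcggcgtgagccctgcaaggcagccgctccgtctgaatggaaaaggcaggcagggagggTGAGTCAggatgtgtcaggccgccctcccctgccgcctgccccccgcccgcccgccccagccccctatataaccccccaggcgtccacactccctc
Such matches are descriptions and not binding sites. The NF-kappaB motif was matched in 9.96% and the AP-1 motif in 6.57% of 35116 RefSeq promoter windows, each the 250 bases before a start site and searched on both strands. The last 53 bases of the IL6 window, which overlap an exon of the gene, are not shown. The IL6 stretch lies before the RefSeq start site but inside the gene as counted here, which begins at 22725884. Windows were found for 8 of the 10 genes, and those for LIF and CLCF1 were not. The IL11 window also held GCGTG, the core of the motif bound by the aryl hydrocarbon receptor, which 32.2% of all windows hold. This core was also matched before LIFR, STAT3 and SOCS3, and the NF-kappaB motif before IL6ST. Of the 8 genes, LIFR had matches to TTCNNNGAA, the motif of STAT factors, which 6.57% of all windows hold. These shares are per window, and LIFR had 3 windows and SOCS3 2, whereas the others had 1 each. The motif of NRF2 (TGACNNNGC), found in 10.9% of all windows, was not matched in these windows.

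In control cells at 24 h, the receptor chains and STAT3 were the more abundant transcripts and the cytokines the less abundant. Per kilobase of exon, the mean level was 35.1 CPM for IL6ST, 20.4 for OSMR, 17.4 for STAT3, 11.9 for IL6R, 8.07 for SOCS3 and 5.77 for LIFR. The cytokines stood at 4.09 CPM per kilobase for LIF, 3.77 for CLCF1, 0.895 for IL6 and 0.707 for IL11. In that order, the libraries of OSMR and STAT3, of IL6R and SOCS3, of LIF and CLCF1, and of IL6 and IL11 overlapped. After 30 µg/cm2 for 24 h, LIF had the highest mean of the 10 genes, 41.9 CPM per kilobase, although its libraries overlapped those of IL6ST at 34.0.

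The first comparison asked what a single high exposure does to these genes. After 24 h at 30 µg/cm2, LIF, IL11 and CLCF1 rose and the other 7 genes did not pass the test. Genes were called at an adjusted p-value under 0.05 in edgeR's quasi-likelihood test, with Benjamini-Hochberg adjustment over all 17599 genes, provided that the log2 fold-change was 0.6 or more in either direction. The 3 of 10 genes called higher compare with 3.82% of all genes tested, and calls in either direction made up 8.07% of them. The median log2 fold-change was 0.08 over the 10 genes and 0.03 over all genes tested.

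LIF encodes leukemia inhibitory factor, which signals through LIFR and gp130. The gene (ENSG00000128342) lies on chromosome 22 from 30240447 to 30246851 on the minus strand (GRCh38, as for all positions here). Its level was 19.9, 9.23 and 19.6 CPM in the controls and 221, 70.2 and 208 CPM after 30 µg/cm2, so that the lowest treated library lay above the highest control. The mean went from 16.2 ± 6.06 CPM (SD, n = 3) to 166 ± 83.5 CPM (SD, n = 3), a 10.2-fold rise with a log2 fold-change of 3.35 (SE 0.407, edgeR adjusted p = 0.000201). Within experiments 1, 2 and 3 the log2 ratio of treated to control was 3.48, 2.93 and 3.41. Its exons share 175 bases with the antisense gene LIF-AS2, which had 360 counts in all libraries against 18360 for LIF.

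IL11 encodes interleukin-11, which uses its own receptor chain with gp130. It lies on chromosome 19 from 55364389 to 55370463 on the minus strand (ENSG00000095752). Its controls held 1.87, 1.74 and 2.05 CPM and the treated libraries 17.1, 5.03 and 19.6 CPM, again without overlap. IL11 rose 7.33-fold, with a log2 fold-change of 2.87 (SE 0.456, edgeR adjusted p = 0.00124). The rise was smaller in experiment 2, where the log2 ratio was 1.53, than in experiments 1 and 3, where it was 3.20 and 3.25.

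CLCF1 encodes cardiotrophin-like cytokine factor 1, a ligand of the ciliary neurotrophic factor receptor. It lies on chromosome 11 from 67364168 to 67374177 on the minus strand (ENSG00000175505). Its level was 7.50, 8.19 and 6.66 CPM in the controls and 29.6, 12.7 and 29.0 CPM after 30 µg/cm2. CLCF1 rose 3.19-fold, with a log2 fold-change of 1.67 (SE 0.253, edgeR adjusted p = 0.00087). Experiment 2 gave the lowest ratio here too, 0.64 on the log2 scale against 1.98 and 2.12. In a fit of the 2 groups compared alone, the CLCF1 call was lost at a log2 fold-change of 1.68 (edgeR adjusted p = 0.053). Without 24-h experiment 2, the log2 fold-changes were 3.43 for LIF, 3.21 for IL11 and 2.03 for CLCF1, and all 3 remained called.

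IL6, the founding member of the family and an inducer of the acute phase response, did not change detectably with 30 µg/cm2. The gene (ENSG00000136244) lies on chromosome 7 from 22725884 to 22732002 on the plus strand. It was a low transcript, with 15 to 87 counts per 24-h library. Its exons share 428 bases with the antisense gene IL6-AS1, which had 31 counts in all libraries against 568 for IL6. Controls held 2.62, 0.706 and 2.23 CPM and treated libraries 2.60, 2.15 and 2.68 CPM. The control of experiment 2 was the low value, and the other controls lay within the range of the treated libraries. The log2 fold-change was 0.40 (SE 0.368, edgeR adjusted p = 0.575), with ratios of -0.01, 1.61 and 0.26 within the experiments.

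**Figure D1:**
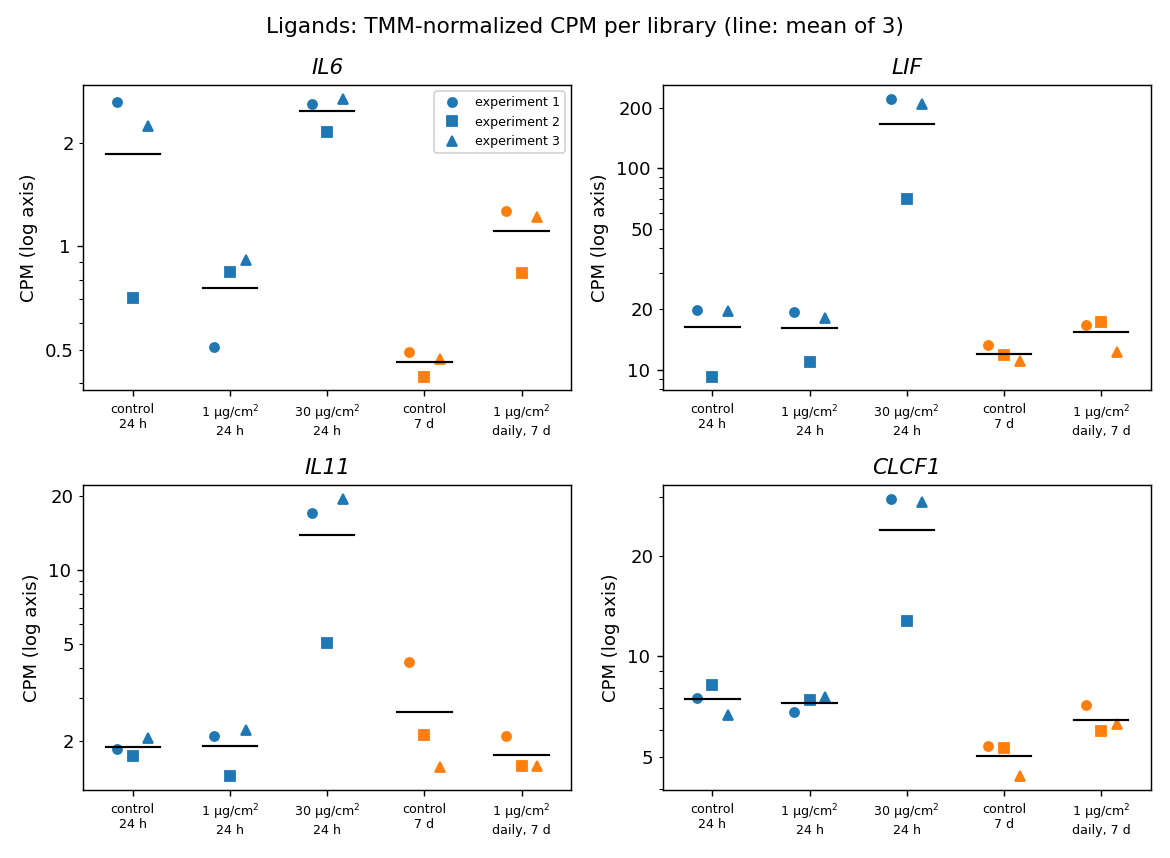
TMM-normalized CPM of the 4 cytokine genes on a log axis, for the 5 groups, with 1 point per library, the shape giving the experiment and the line the mean of 3. LIF, IL11 and CLCF1 were highest in the 30 µg/cm2 group, with experiment 2 the lowest of its 3 points, and the IL6 control of experiment 2 lay at 0.706 CPM, below the other 24-h controls.

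None of the receptor chains nor STAT3 was called at 30 µg/cm2. IL6R (ENSG00000160712) lies on chromosome 1 from 154405193 to 154469450 and STAT3 (ENSG00000168610) on chromosome 17 from 42313324 to 42388568. The other receptor genes lie on chromosome 5, IL6ST (ENSG00000134352) from 55935095 to 55994993, OSMR (ENSG00000145623) from 38845858 to 38945596 and LIFR (ENSG00000113594) from 38474963 to 38608354. IL6R, the specific chain for IL6, was at 90.7, 54.1 and 86.1 CPM in the controls and 76.4, 37.0 and 73.6 CPM after exposure, a log2 fold-change of -0.31 (SE 0.280, edgeR adjusted p = 0.567). Within the experiments it was lower in all 3 pairs, with log2 ratios of -0.25, -0.55 and -0.23. With the replicate block IL6R was at -0.34 (SE 0.0848, edgeR adjusted p = 0.00948), past the p-value threshold and under that on the fold-change. IL6ST was at 326 ± 32.8 CPM (SD, n = 3) and 316 ± 26.1 CPM (SD, n = 3), which gave a log2 fold-change of -0.04 (SE 0.155). OSMR, the receptor chain for oncostatin M, had a log2 fold-change of 0.20, LIFR of -0.14 and STAT3 of -0.19, with edgeR adjusted p-values of 0.739, 0.771 and 0.545. STAT3 was lower than its control in all 3 experiments, by ratios of -0.28, -0.11 and -0.18, and was not called with the block (edgeR adjusted p = 0.179). OSMR shares 229 exon bases with RICTOR on the other strand, and the use of strand in counting was not given in the sources used here, so that reads in this stretch cannot be assigned with certainty.

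SOCS3 was lower than its control in experiments 1 and 3 and level with it in experiment 2. The gene (ENSG00000184557) lies on chromosome 17 from 78356778 to 78360077 on the minus strand. Its level was 21.0, 24.5 and 20.7 CPM in the controls and 11.1, 24.5 and 11.9 CPM after 30 µg/cm2, so that the groups overlapped through 1 library. Within the experiments, the log2 ratio was -0.92, -0.00 and -0.80. Over all libraries, SOCS3 did not pass the test, with a log2 fold-change of -0.48 (SE 0.234, edgeR adjusted p = 0.24). With the replicate block it was at -0.54 (SE 0.173, edgeR adjusted p = 0.0325), past the p-value threshold and under that on the fold-change. Without 24-h experiment 2 it was called, at -0.87 (edgeR adjusted p = 1.14e-05), in a fit that called 9.95% of 17950 genes lower. Leaving out the treated library of experiment 2 alone gave -0.95 (edgeR adjusted p = 0.000513).

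**Figure D2:**
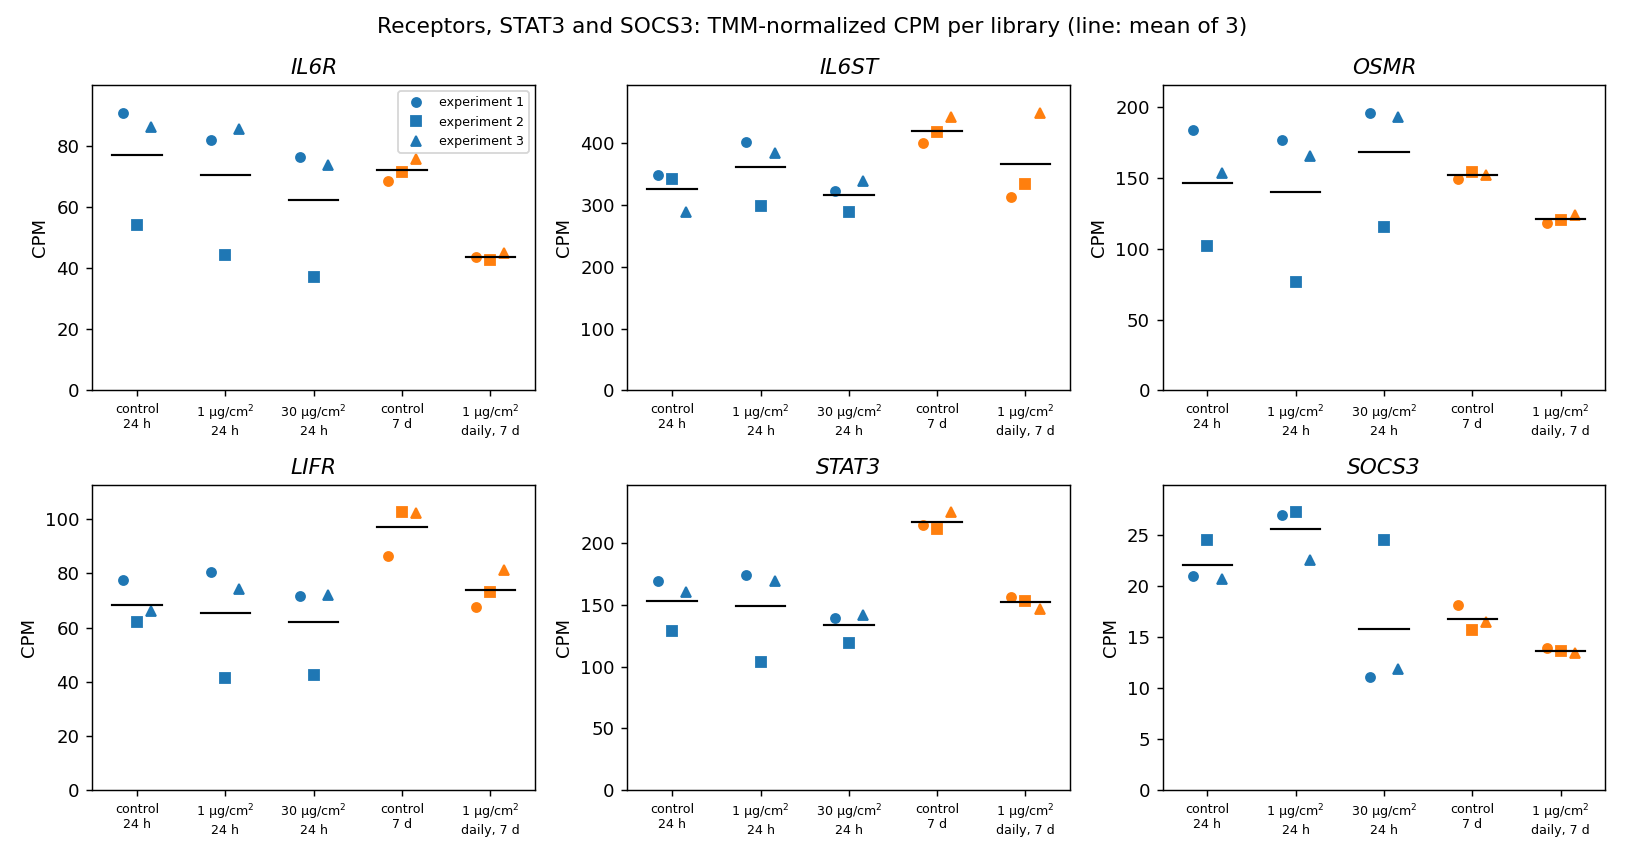
TMM-normalized CPM of the 4 receptor chains, STAT3 and SOCS3 on linear axes from 0, for the 5 groups, with 1 point per library, the shape giving the experiment and the line the mean of 3. SOCS3 in the 30 µg/cm2 group split into 11.1 and 11.9 CPM in experiments 1 and 3 and 24.5 CPM in experiment 2, and IL6R after daily exposure lay between 42.5 and 44.9 CPM, below every 7-day control.

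The second comparison asked whether 1 µg/cm2 for 24 h changes these genes. None of the 10 was called, and 0.0625% of all genes were, 11 of 17599 in edgeR's test. At an unadjusted p-value under 0.05, 534 of all genes passed. LIF stood at 16.1 ± 4.51 CPM (SD, n = 3), IL11 at 1.92 ± 0.421 CPM (SD, n = 3) and CLCF1 at 7.25 ± 0.395 CPM (SD, n = 3), with log2 fold-changes of -0.01, 0.03 and -0.04. IL6 had the largest estimate, with 0.510, 0.843 and 0.913 CPM, or 15, 17 and 26 counts, against 2.62, 0.706 and 2.23 CPM in the controls. Its log2 fold-change was -1.32 (SE 0.396, edgeR adjusted p = 1), from ratios of -2.36, 0.25 and -1.29 within the experiments. The treated libraries were low in all 3 experiments and the control was low in experiment 2 only. Leaving out that control gave -1.67 (edgeR adjusted p = 0.0312), and leaving out the whole experiment -1.76 (edgeR adjusted p = 0.00274), which were calls. Both of these fits called more of all genes than the fit of all libraries.

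Set directly against 1 µg/cm2, all 4 cytokines were higher at 30 µg/cm2. The 4 of 10 genes called higher compare with 3.62% of all genes tested. IL6 was 3.28-fold higher, at 2.60, 2.15 and 2.68 CPM, with a log2 difference of 1.71 (SE 0.395, edgeR adjusted p = 0.0143), and all 9 pairs of libraries went the same way. LIF was 10.3-fold, IL11 7.18-fold and CLCF1 3.28-fold higher, with edgeR adjusted p-values of 0.000299, 0.0017 and 0.000955. The IL6 call was lost without the experiment 1 library at 1 µg/cm2 (1.46, edgeR adjusted p = 0.0659) and without the experiment 1 or the experiment 3 library at 30 µg/cm2 (1.65 and 1.66, edgeR adjusted p = 0.0547 and 0.0546). In a fit of these 2 groups alone, the calls for IL6, IL11 and CLCF1 were lost, with edgeR adjusted p-values of 0.0735, 0.0678 and 0.0785.

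SOCS3 was lower at 30 than at 1 µg/cm2 in 8 of 9 pairs of libraries, with 26.9, 27.2 and 22.6 CPM at the lower concentration. The log2 difference of -0.69 (SE 0.235) did not pass the test (edgeR adjusted p = 0.0807). With the experiment as a replicate block, SOCS3 was called at -0.76 (edgeR adjusted p = 0.00531), in a fit that called 8.58% of all genes lower. Without 24-h experiment 2 it was called at -1.13 (edgeR adjusted p = 7.64e-07), and without the experiment 2 library at 30 µg/cm2 at -1.17 (edgeR adjusted p = 0.000132). These fits, too, called more of all genes than the fit of all libraries.

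**Figure D3:**
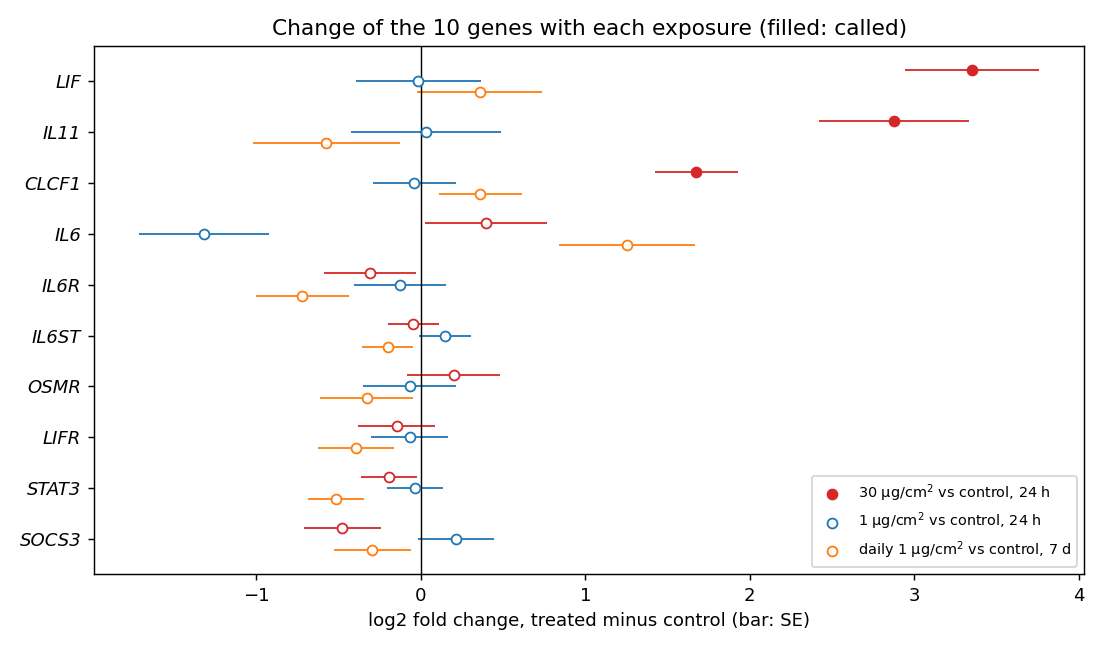
Log2 fold-change of each of the 10 genes against its own control (x axis), with bars of 1 SE, for 30 µg/cm2 at 24 h, 1 µg/cm2 at 24 h and daily 1 µg/cm2 in the 7-day protocol, filled where called. The filled points are LIF, IL11 and CLCF1 at 30 µg/cm2, at 3.35, 2.87 and 1.67, and IL6 lay at -1.32 after a single exposure and at 1.25 after daily exposure to 1 µg/cm2, neither of them called.

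The third comparison asked what daily exposure to 1 µg/cm2 does. None of the 10 genes was called, against 0.227% of all genes, 40 of 17599 in edgeR's test, and 2102 genes passed at an unadjusted p-value under 0.05. The 3 treated libraries lay above the 3 controls for IL6 and CLCF1 and below them for IL6R, OSMR, LIFR, STAT3 and SOCS3. Of all genes tested, 21.3% lay wholly above and 21.6% wholly below in the same libraries. The median log2 fold-change of the 10 genes was -0.31, against 0.01 over all genes tested.

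IL6R was at 68.5, 71.5 and 75.6 CPM in the 7-day controls and at 43.6, 42.5 and 44.9 CPM in the treated libraries, with no overlap. With all 15 libraries sharing 1 spread, its log2 fold-change of -0.72 (SE 0.281) was not called (edgeR adjusted p = 0.323). With the experiment as a replicate block, IL6R was called at the same -0.72 (SE 0.0849, edgeR adjusted p = 0.0015), in a fit that called 2.79% of all genes lower. IL6R was also called without 24-h experiment 2 (edgeR adjusted p = 9.31e-06) and in a fit of the 2 groups of the 7-day protocol alone (edgeR adjusted p = 0.000174). Both of these fits called far more of all genes than the fit of all libraries. Its ratios within the experiments were -0.65, -0.75 and -0.75.

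STAT3 showed the same order, with 215, 211 and 225 CPM in the controls and 156, 153 and 147 CPM after daily exposure. Its log2 fold-change was -0.51 (SE 0.170, edgeR adjusted p = 0.237), and with the replicate block -0.51 (edgeR adjusted p = 0.00901), which lies under the fold-change threshold. LIFR was at 97.1 ± 9.21 CPM (SD, n = 3) in the controls and 73.9 ± 6.83 CPM (SD, n = 3) after exposure, a log2 fold-change of -0.39 (SE 0.233, edgeR adjusted p = 0.547). OSMR was at 149, 154 and 152 CPM and then 118, 121 and 124 CPM, a log2 fold-change of -0.33 (SE 0.284, edgeR adjusted p = 0.698). SOCS3 was at 18.1, 15.7 and 16.5 CPM and then 13.9, 13.7 and 13.4 CPM, a log2 fold-change of -0.29 (SE 0.234, edgeR adjusted p = 0.669). IL6ST, the shared chain, overlapped between the groups, with 419 ± 21.2 CPM (SD, n = 3) and 365 ± 73.0 CPM (SD, n = 3).

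Among the cytokines, IL6 was at 0.494, 0.418 and 0.471 CPM in the 7-day controls, or 13 to 15 counts, and at 1.26, 0.838 and 1.22 CPM after daily exposure, or 29 to 39 counts. The log2 fold-change of 1.25 (SE 0.414) did not pass the test (edgeR adjusted p = 0.236), with ratios of 1.36, 1.00 and 1.37 within the experiments. IL6 was called without 24-h experiment 2 (1.26, edgeR adjusted p = 0.00502) and in a fit of the 2 groups alone (edgeR adjusted p = 0.00914), and not with the replicate block (1.24, edgeR adjusted p = 0.0557). The 2 fits that called IL6 also called far more of all genes than the fit of all libraries. LIF was at 12.0 ± 1.15 CPM (SD, n = 3) and 15.4 ± 2.79 CPM (SD, n = 3), and CLCF1 at 5.01 ± 0.561 CPM (SD, n = 3) and 6.44 ± 0.615 CPM (SD, n = 3), both with a log2 fold-change of 0.36. IL11 was at 4.22, 2.12 and 1.57 CPM in the controls and 2.11, 1.59 and 1.59 CPM after exposure. Its control of experiment 1 was the highest value, and the groups overlapped.

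The response to daily exposure was set against the response to a single exposure at the same 1 µg/cm2 by testing their difference. None of the 10 genes was called, and neither was any other gene, 0% of 17599 in edgeR's quasi-likelihood test. At an unadjusted p-value under 0.05, 1245 genes passed, and 75 were called by DESeq2 and 13 by edgeR's likelihood ratio test. IL6 had the largest difference of the 10, 2.57 on the log2 scale (SE 0.572, unadjusted p = 0.000527, edgeR adjusted p = 0.351). With the replicate block, IL6 was called at 2.54 (edgeR adjusted p = 0.0475), in a fit that called 0.347% of all genes higher. Over the alternatives tried, its edgeR or DESeq2 adjusted p-value ranged from 7.14e-06 to 0.953, and without 24-h experiment 2 the difference was 3.02 (edgeR adjusted p = 0.000328). The differences for IL6R and STAT3 were -0.59 and -0.48, and neither was called (edgeR adjusted p = 0.834 and 0.75). Without 24-h experiment 2, IL6R was called at -0.65 (edgeR adjusted p = 0.000673). That fit, which also gave the IL6 difference of 3.02, called far more of all genes than the fit of all libraries.

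**Figure D4:**
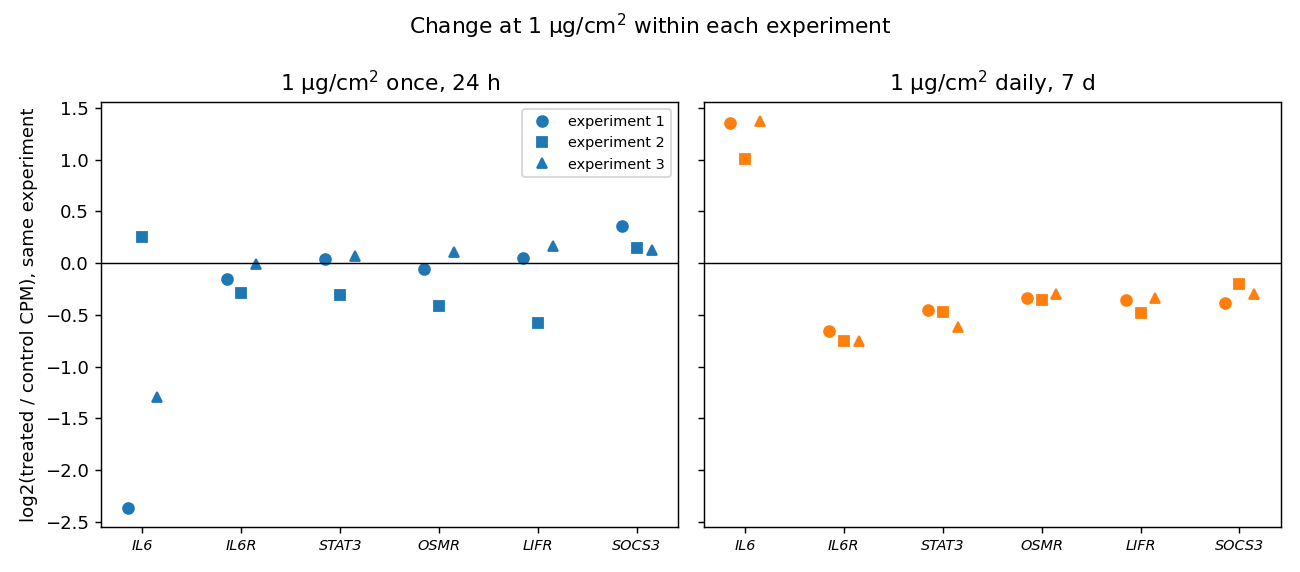
Log2 ratio of treated to control CPM of the same experiment (y axis) for IL6, IL6R, STAT3, OSMR, LIFR and SOCS3, after a single (left) or daily (right) exposure to 1 µg/cm2, with 1 point per experiment. IL6 lay at -2.36, 0.25 and -1.29 on the left and at 1.36, 1.00 and 1.37 on the right, where the other 5 genes shown were below 0 in all 3 experiments. Of the genes not shown, LIF and CLCF1 were above 0 in all 3 experiments after daily exposure. IL11 and IL6ST were above 0 in experiment 3 only.

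The controls of the protocols were also compared with each other, where the day, the plating density and the repeated handling cannot be told apart and no replicate block could be fitted. IL6 fell, from 1.85 ± 1.01 CPM (SD, n = 3) at 24 h to 0.461 ± 0.0391 CPM (SD, n = 3) in the 7-day protocol, a log2 difference of -2.02 (SE 0.410, edgeR adjusted p = 0.00249), with all 9 pairs of libraries lower. The 1 gene of 10 called lower compares with 10.8% of all genes tested, and 21.9% were called in either direction. STAT3 was at 153 ± 21.4 CPM (SD, n = 3) and 217 ± 7.02 CPM (SD, n = 3), which gave a log2 difference of 0.50 (SE 0.170, edgeR adjusted p = 0.0391), under the fold-change threshold. LIFR was at 68.5 ± 8.02 CPM (SD, n = 3) and 97.1 ± 9.21 CPM (SD, n = 3), which gave a log2 difference of 0.50 that did not pass the test (edgeR adjusted p = 0.123). LIF was not called at -0.44 (edgeR adjusted p = 0.418), and without 24-h experiment 2 it was called at -0.73 (edgeR adjusted p = 0.000109). CLCF1, at -0.57 (edgeR adjusted p = 0.106), was called at -0.602 without the experiment 2 library at 30 µg/cm2, just past the threshold of 0.6. That library is in neither control group. Without 24-h experiment 2 as a whole, CLCF1 was at -0.52 (edgeR adjusted p = 0.00333), under the fold-change threshold and not called. With each library left out, 2832 to 4504 of all genes were called in this comparison.

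Other genes of the pathway were taken from lists on ligands and receptors, on kinases and other STATs, on inhibitors, and on genes that STAT3 is known to switch on. Of 11 other ligands and receptors, 7 could be tested, and OSM, IL27, EBI3 and IL31 were too low. After 30 µg/cm2, 1 of these 7 was called, IL27RA, the receptor chain for interleukin-27, which rose from 15.7 ± 1.91 CPM (SD, n = 3) to 38.0 ± 3.40 CPM (SD, n = 3), which gave a log2 fold-change of 1.27 (SE 0.124, edgeR adjusted p = 3.73e-05). Over all genes tested, 3.82% were called higher and 8.07% in either direction. None of 10 kinases, adaptors and other STATs and none of 13 inhibitors and receptor sheddases was called, with medians of 0.13 and 0.01 on the log2 scale. Over the 4 lists, 8 genes were called, against 15 with the replicate block, where 15.2% of all genes were called. The number was 18 without 24-h experiment 2, 14 without its library at 30 µg/cm2 and 4 with only the groups compared. All genes called were 1420, against 3430 without 24-h experiment 2 and 360 with only the groups compared. With each library left out, they were 794 to 2706. IL11RA, the receptor chain for interleukin-11, chosen after its values were seen, was not called at -1.06 (edgeR adjusted p = 0.188) and was called with the block at -1.09 (edgeR adjusted p = 2.1e-05).

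Of 22 STAT3-responsive genes, 20 could be tested, and 4 rose and 3 fell after 30 µg/cm2, with a median log2 fold-change of 0.17. Over all genes tested, 673 were called higher and 747 lower of 17599. The genes that rose were JUNB, a subunit of AP-1, PIM1, a survival kinase, VEGFA, the main growth factor for blood vessels, and TIMP1, an inhibitor of matrix metalloproteinases. VEGFA went from 56.2, 52.9 and 54.6 CPM to 192, 104 and 196 CPM, a log2 fold-change of 1.59 (SE 0.196, edgeR adjusted p = 0.000221). TIMP1 had a log2 fold-change of 1.42 (SE 0.278, edgeR adjusted p = 0.0052), JUNB of 1.06 (SE 0.174, edgeR adjusted p = 0.0016) and PIM1 of 0.88 (SE 0.251, edgeR adjusted p = 0.0404). In a fit of the 2 groups alone, TIMP1, FGG and PIM1 were not called (edgeR adjusted p = 0.0568, 0.0632 and 0.227), and PIM1 was also lost without either the experiment 1 or the experiment 3 library of the 24-h controls (edgeR adjusted p = 0.158 and 0.153) or of 30 µg/cm2 (edgeR adjusted p = 0.197 and 0.173). TIMP1 was highest in the treated library of experiment 2, at 698 CPM against 329 and 370 CPM, whereas LIF, IL11 and CLCF1 were lowest there.

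The genes that fell were FGA, FGB and FGG, which encode the chains of fibrinogen, an acute phase protein. FGB had 142, 92 and 149 counts in the controls and 0, 8 and 0 counts after 30 µg/cm2 (edgeR adjusted p = 0.00028). FGG had 117, 161 and 90 counts and then 0, 16 and 1 counts (edgeR adjusted p = 0.00244). FGA was low throughout, with 10, 22 and 6 counts and then 0, 3 and 0 counts (edgeR adjusted p = 0.0361), and its call was lost without the experiment 2 control (edgeR adjusted p = 0.12) and without the experiment 1 or experiment 3 library at 30 µg/cm2 (edgeR adjusted p = 0.144 and 0.128). The counts that remained after exposure came almost wholly from experiment 2. Without PM2.5, all 3 genes were also called lower in the 7-day than in the 24-h controls, where 10.8% of all genes were. The log2 differences were -6.26 for FGB, -3.54 for FGG and -5.00 for FGA (edgeR adjusted p = 6.16e-05, 0.00239 and 0.0063). In the 7-day controls FGB had 2, 3 and 0 counts.

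After 1 µg/cm2, once or daily, and in the difference between these responses, none of the genes in these 4 lists was called. With the replicate block, 3 were called after daily exposure, where 4.39% of all genes were called. They were SOCS2 at 0.74 (edgeR adjusted p = 0.0232), CISH at -0.66 (edgeR adjusted p = 0.029) and STAT5A at -0.63 (edgeR adjusted p = 0.0147). Without 24-h experiment 2, 5 were called after daily exposure, 1 after a single exposure and 6 in the difference. Of all 17950 genes tested in that fit, 1083, 378 and 1766 were called, in the same order. At 30 against 1 µg/cm2, 1 of the 7 ligands and receptors, none of the 10 kinases, 1 of the 13 inhibitors and 3 of the 20 STAT3-responsive genes were called higher, and 3 of the last were called lower, against 3.62% called higher and 7.84% in either direction over all genes. These 8 genes compare with 18 with the replicate block, where 15.6% of all genes were called, 20 without 24-h experiment 2 and 1 with only the groups compared. Without the experiment 2 library at 30 µg/cm2 the number was 16, and without the experiment 1 or the experiment 3 library 5. All genes called were 1379, against 3113 without 24-h experiment 2 and 149 with only the groups compared. With each library left out, they were 711 to 2715. Between the controls of the protocols, the genes called higher and lower were 1 and 1 of 7 ligands and receptors, 3 and 0 of 10 kinases, 3 and 2 of 13 inhibitors, and 2 and 5 of 20 STAT3-responsive genes, where 21.9% of all genes were called in either direction. These 17 genes became 11 without the 24-h control of experiment 3. All genes called were 3860, and 2832 to 4504 with each library left out.

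The summed level of epithelial markers was lower after the exposures at 30 µg/cm2 and daily 1 µg/cm2. The summed level of 7 epithelial markers was 2004 to 2522 CPM in the 24-h controls and 843 to 1309 CPM after 30 µg/cm2, and 2270 to 2785 CPM in the 7-day controls and 1411 to 1561 CPM after daily exposure. The keratins made up most of these sums, and KRT5 went from 748 to 136 CPM at 30 µg/cm2 and from 917 to 482 CPM after daily exposure. EPCAM, a surface marker of epithelia, was at 36.0 and 32.2 CPM at 24 h and at 80.9 and 87.5 CPM in the 7-day protocol. None of the 7 was at or under the floor in every library of a group. Of 5 leukocyte markers, 4 were at or under the floor in every library of each 24-h group and 3 in each 7-day group. CD14 was at 11.3, 10.9 and 12.9 CPM in the 24-h controls and at 2.30, 17.9 and 2.97 CPM after 30 µg/cm2, high in experiment 2 as SOCS3 was. The summed level of 5 fibroblast markers was 66.7 to 77.7 CPM in the 24-h controls and 50.0 to 96.2 CPM after 30 µg/cm2. The part of these markers in the results was not tested.

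Across the 15 libraries, the tested genes of at least 1 CPM whose log2 CPM ran most like that of each cytokine were listed as a description. Libraries share experiment and group, which enter these values. For LIF they were ASB1 (Pearson's r = 0.980), CBARP (0.977) and GCLC (0.973), and for IL11 NSMAF (0.959), GCLC (0.956) and ZNF697 (0.953). For CLCF1 they included LONRF1 (0.959) and TSPYL2 (0.951), and for IL6 they were NIFK (0.946), EIF3J (0.945) and DKC1 (0.943). GCLC, which encodes the catalytic subunit of the enzyme that starts glutathione synthesis, was among the 3 nearest genes of both LIF and IL11.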

How the data were processed

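The authors aligned single-end 50-base reads to GRCh38 with STAR and deposited one table of raw featureCounts counts per gene, with no normalization. The featureCounts options, the annotation and the use of strand were not given in the sources used here. The submitters' processing notes name hg19, but 57370 of the 57392 genes with an identifier in GENCODE release 44 overlapped its GRCh38 position, so GRCh38 was used. Gene lengths are the exon lengths the authors deposited.

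The tests were run with edgeR 4.0.16 under R 4.3.3. The filterByExpr step retained 17599 genes, and TMM factors scaled the libraries. All 15 libraries entered a single quasi-likelihood fit (legacy mode) with 1 mean per group, and p-values were adjusted by Benjamini-Hochberg over all genes tested. A call needed an adjusted p-value under 0.05 and a log2 fold-change of 0.6 or more, up or down. Alternatives were RLE or upper-quartile scaling, no filter or 1 CPM in at least 3 libraries, DESeq2 1.42.0, edgeR's current mode and its likelihood ratio test, only the groups compared, a replicate block, and libraries left out. The fits were tested on simulated data.

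The series record gives the replicate number as the experimental batch, which pairs libraries within a protocol. Deviations from group means correlated at 0.201 to 0.721 between libraries of the same number at 24 h and at 0.121 to 0.181 in the 7-day protocol. Between libraries of different numbers they correlated at -0.68 to 0.453 at 24 h and at -0.127 to -0.034 in the 7-day protocol. The ranges overlapped at 24 h, where an experiment stood apart in every group, so these values do not show that every experiment was paired there.

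The 10 genes, the other lists and the comparisons were chosen with earlier results of these data known. All 10 genes are named, with the genes of other lists called after 30 µg/cm2 or daily exposure (at most 8 per list) and the 3 genes most correlated with each cytokine among tested genes of at least 1 CPM, except that a gene this rule covers is not reported here. The motifs were chosen after the counts had been seen. The methylation data of the study were not analysed here.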

Additional observations from a re-analysis of the deposited data

Results flagged for a closer look

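The response of IL6 to 1 µg/cm2 was called as different between the protocols with the replicate block and not without it. The daily response minus the single response was 2.54 on the log2 scale with the replicate block (edgeR adjusted p = 0.0475), and 2.57 without it (edgeR adjusted p = 0.351). Over the alternatives, the adjusted p-value ranged from 7.14e-06 to 0.953 in edgeR or DESeq2. IL6 was lower than its control in 2 of 3 experiments after a single exposure and higher in 3 of 3 after daily exposure.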

How the results depend on the processing

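Over the alternatives, 1503 of 1540 values of the 10 genes kept their direction and their side of the threshold, 29 newly passed it, 7 no longer passed it and 1 reversed. A reported estimate that was not called and lay within 1 SE of 0 was taken to have no direction that could reverse. The 1 reversal was IL11 between the controls of the protocols, which was 0.47 and ranged from -0.034, without the 7-day control of experiment 1, to 0.74 with each library left out. IL6 had the fewest counts of the 10 genes over all libraries, 568, with 13 to 87 per library. The replicate block without 24-h experiment 2 was added after the data were seen. No experiment other than 24-h experiment 2, which stood apart, was left out as a whole.

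The number of all genes called moved as follows. For 30 µg/cm2 against control it was 1420, and 2681 with the replicate block, 360 with only the groups compared, 3430 without 24-h experiment 2, 3699 with the block and without that experiment, and 794 to 2706 with each library left out. At 30 against 1 µg/cm2 it was 1379, and in the same order 2737, 149, 3113, 3374 and 711 to 2715. For a single 1 µg/cm2 it was 11, and 74, 2, 378, 590 and 4 to 45, with 38 without a filter, 39 by DESeq2 and 34 by the likelihood ratio test. For daily exposure it was 40, and 773, 1029, 1083, 1353 and 0 to 104, with 92 without a filter, 250 by DESeq2 and 194 by the likelihood ratio test. For the difference between responses it was 0, and 181, 1, 1766, 2213 and 0 to 63, with 20 without a filter, 75 by DESeq2 and 13 by the likelihood ratio test.

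Of the 10 genes, the number called for a single 1 µg/cm2 was 0, and 1 without 24-h experiment 2, with or without the block, and 0 to 1 with each library left out. At 30 against 1 µg/cm2 it was 4, and 1 with only the groups compared. Between the controls it was 1, and 2 without 24-h experiment 2 and 1 to 2 with each library left out. For daily exposure it was 0, and 1 with the replicate block, 2 with only the groups compared and 2 without 24-h experiment 2, with or without the block. For the difference between responses it was 0, and 1 by DESeq2, by the likelihood ratio test and with the block, 2 without 24-h experiment 2, with or without the block, and 0 to 1 with each library left out. The replicate block changed the calls of IL6R, SOCS3 and IL6 given above and no other call of the 10 genes. The cause of these changes was not tested.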
